A study of Caenorhabditis elegans with 2 samples.

Results

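Pre-mRNA splicing depends on a large set of proteins, and the promoters of 45 genes for such proteins in Caenorhabditis elegans are described here. They were chosen by name alone: each nuclear protein-coding gene of the WBcel235 assembly whose Ensembl name starts with snr, rsp, prp, lsm, uaf, sftb or snrp, then a hyphen and a digit. The rule found 45 of 19973 genes and uses no measured value. The measurement was chromatin immunoprecipitation with sequencing (ChIP-seq), in which DNA bound to a protein is recovered with an antibody and its genomic positions are called as peaks. There was 1 group of 2 biological replicates, whole mid-embryos 3.5 hours old from strain OP787, synchronised by bleaching and precipitated through GFP. The strain carries the transgene wgIs787, which holds T27A8.2 joined to TY1, EGFP and 3xFLAG tags and a working copy of unc-119, in an unc-119 (tm4063) background. The labels name the target tab-1, whereas the genotype puts the tag on T27A8.2. In the annotation used here these are different genes, tab-1 on chromosome II and T27A8.2 on X, so the protein is called the tagged protein and the samples "labelled tab-1". The labels point to a control experiment, which was not analysed here, and no group differs in genotype, so every comparison below is between genes or between replicates.

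The spliceosome removes introns and is built from small nuclear ribonucleoproteins (snRNPs), each a small nuclear RNA (snRNA) with its proteins. The Sm proteins form a ring on most spliceosomal snRNAs, and the related LSm proteins form rings on U6 snRNA or, in another combination, on messenger RNA bound for decay. SR proteins and U2AF recognise exons and the 3′ splice site, and the SF3A and SF3B, U4/U6, U5 and Prp19 complex proteins act as the spliceosome assembles and reacts. Roles given below are mostly those worked out for the yeast or human counterparts. In this worm many transcripts receive a spliced leader by trans-splicing, so an annotated 5′ end is often a trans-splice site and not the place where transcription starts.

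The 5 promoter summits of the authors' conservative list that belong to these genes are shown first, because they carry most of the values that follow. A summit is the position of highest signal within a peak. The letters are the plus strand of the WBcel235 genome sequence from RefSeq, 5′ to 3′,, reaching 100 bp to each side of each summit. The prp-19 stretch is shorter, 144 bases, because it stops before the annotated 5′ end of the neighbouring gene K10D2.5. Capitals mark any of 6 preset words of 6 letters, spelled out with the results below, on either strand, and the 11-letter words shared between sites. The windows lie at chrIV:17087550-17087750 (snr-1), chrIII:5172576-5172719 (prp-19), chrV:11979956-11980156 (snr-4), chrII:11453091-11453291 (rsp-1 and rsp-2) and chrIV:17116927-17117127 (uaf-2).
snr-1: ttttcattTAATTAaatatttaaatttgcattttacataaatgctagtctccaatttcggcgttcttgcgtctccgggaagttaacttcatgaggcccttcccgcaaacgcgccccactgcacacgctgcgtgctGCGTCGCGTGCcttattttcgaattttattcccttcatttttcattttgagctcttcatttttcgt
prp-19: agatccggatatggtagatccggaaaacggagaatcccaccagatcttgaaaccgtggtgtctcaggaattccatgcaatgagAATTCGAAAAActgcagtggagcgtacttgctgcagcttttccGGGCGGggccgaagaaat
snr-4: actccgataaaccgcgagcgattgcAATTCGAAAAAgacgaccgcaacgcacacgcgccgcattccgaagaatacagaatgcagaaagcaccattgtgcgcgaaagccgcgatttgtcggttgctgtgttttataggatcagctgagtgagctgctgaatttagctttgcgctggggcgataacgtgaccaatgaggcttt
rsp-1/rsp-2: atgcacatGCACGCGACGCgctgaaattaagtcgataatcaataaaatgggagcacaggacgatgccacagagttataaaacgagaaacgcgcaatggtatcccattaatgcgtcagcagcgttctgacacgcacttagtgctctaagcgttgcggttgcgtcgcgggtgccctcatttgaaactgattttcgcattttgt
uaf-2: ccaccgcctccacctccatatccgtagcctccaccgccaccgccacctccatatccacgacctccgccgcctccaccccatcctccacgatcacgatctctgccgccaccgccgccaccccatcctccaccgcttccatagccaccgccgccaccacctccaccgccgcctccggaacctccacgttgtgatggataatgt

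The uaf-2 window differs by eye from the rest, since it runs through a coding exon and is made largely of repeats rich in c. The right end of the snr-4 window belongs to the snRNA gene C52E4.8, which runs from 11980118 to 11980261 on the plus strand of chromosome V and is 144 bases long. It is printed because it is the only small RNA gene within 200 bp of any of the 5 summits. Capitals mark ATTTTTG at base 118, a word like the U-rich site on which Sm rings assemble, found in 72 of 129 annotated snRNA genes.
C52E4.8: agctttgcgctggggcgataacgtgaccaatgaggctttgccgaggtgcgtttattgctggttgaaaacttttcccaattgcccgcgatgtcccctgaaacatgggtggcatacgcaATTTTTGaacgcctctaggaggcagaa

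A summit of the conservative list lay in the promoter of 6 of the 45 genes, snr-1, snr-4, rsp-1, rsp-2, uaf-2 and prp-19. That is 13.3% of the set, against 2.97% of all nuclear protein-coding genes, a ratio of 4.48. The window reached from 1000 bp upstream to 200 bp downstream of any annotated transcript 5′ end, and a gene counted when a summit fell inside it. The 6 genes rest on 5 summits, because rsp-1 and rsp-2 share one. The conservative list held 1313 nuclear peaks, all with a score of 830 or more, which lies at a global irreproducible discovery rate (IDR) of 0.01. The IDR estimates how often peaks fail to recur between 2 sets of data, so lower is better.

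The authors' other thresholded list of both replicates, with 1559 peaks, added rsp-8 and lsm-3. It held 8 of the 45 genes (17.8%, against 3.47% of all genes). The replicates' own thresholded lists differed in what they held of the set. Replicate 2's list of 732 peaks held 6 of the 45 genes, rsp-1, rsp-2, rsp-8, lsm-3, prp-19 and snr-1 (13.3%, against 2.08% of all genes). Replicate 1's list of 464 peaks held snr-1 alone (2.22%, against 1.08% of all genes). Thus snr-1 was the only gene of the set in both replicates' own lists, where 0.891% of all genes stood. The uaf-2 and snr-4 summits passed the threshold of the conservative list and of neither replicate's own list.

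**Figure D1:**
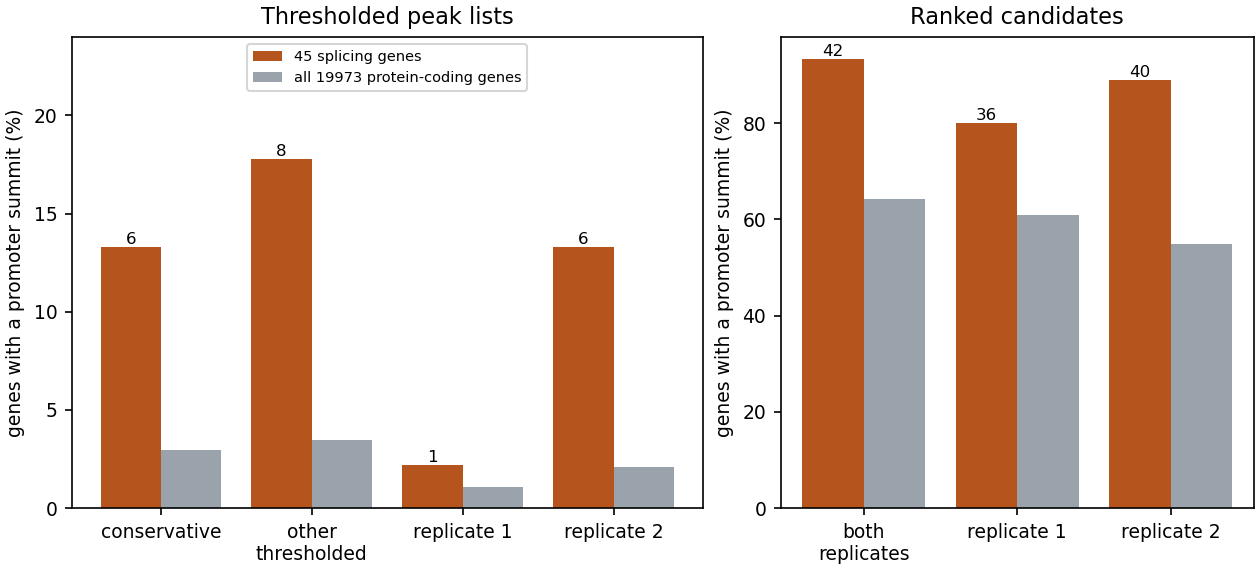
Share of genes (%, vertical axes) with a promoter summit in each of 4 thresholded lists (left) and 3 ranked candidate lists (right), for the 45 splicing genes and for all 19973 protein-coding genes; numbers over the bars count splicing genes, and both axes start at 0. The splicing bar is the higher in every list, 13.3% against 2.97% in the conservative list and 93.3% against 64.3% in the candidates.

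Candidates are all ranked peaks of both replicates together, most of them far below the threshold. Of the 95098 candidates, 1437 had a score of 830 or more, and all 1313 conservative peaks were among the candidates. A promoter candidate was present at 42 of the 45 genes (93.3%, against 64.3% of all genes), and the 3 genes without one were snrp-3, snrp-40.2 and prp-4. The splicing genes had 99 distinct candidates, with a median of 2 and at most 6 per gene, against a median of 1 and at most 20 over all genes. Among the 99, the 5 conservative summits were the only ones with a score of 830 or more. Counting only genes with a candidate, 6 of 42 (14.3%) had a conservative summit, against 4.63%. In the replicates' own ranked lists, 36 genes (80%, against 61.0%) had a peak in replicate 1 and 40 (88.9%, against 54.9%) in replicate 2. Both included prp-4, with 16.5 at 649 bp upstream in replicate 1 and 11.1 at 4 bp upstream in replicate 2. Neither included snrp-3 or snrp-40.2.

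The Sm ring genes held the strongest site of the set. The snr-1 promoter, whose gene encodes the counterpart of SmD3, had a peak at chrIV:17087498-17087801 with its summit at 17087650. Its signal, in the authors' units, was 135, rank 350 of 1313 in the conservative list, with a global IDR of 0.000733. Replicate 1 gave it a signal of 63.2 (rank 431 of 74963) and replicate 2 a signal of 72.3 (rank 473 of 63146). It was thus placed alike in both, and the peak was in each replicate's own thresholded list. The summit lay 399 bp upstream of snr-1 and 212 bp upstream of snx-13, a sorting nexin gene on the opposite strand.

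The other conservative Sm site was at snr-4, which encodes the counterpart of SmD2. Its peak at chrV:11979904-11980207 had a signal of 118, rank 422, with an IDR of 0.00106. Replicate 1 gave 54.8 (rank 597) and replicate 2 gave 58.4 (rank 633), so the replicates differed little here, yet neither placed it in its own thresholded list. The summit was 333 bp upstream of snr-4 within the non-coding gene C52E4.14, and 62 bp before the start of the snRNA gene C52E4.8 printed above. Which of these genes the site belongs to cannot be told apart from position. A further snr-4 summit at 11980268, just past the end of the snRNA gene, stood in the other thresholded list with a signal of 16.8, rank 1512 of 1559. Replicate 1 gave 7.29 there, and the replicate 2 peak that overlaps it is the one already counted at the stronger snr-4 summit, with 58.4, so the replicates are not compared at this summit. The remaining Sm genes had candidates below the threshold, with best signals from 11.4 at snr-5 (SmF) through 27.5 at snr-2 (SmB), 39.1 at snr-3 (SmD1) and 49 at snr-7 (SmG) to 53.7 at snr-6 (SmE). The Sm ring therefore spans nearly the whole range of the set, though its proteins work as parts of the same ring.

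Among the Prp19 complex and second-step factors, prp-19 stood apart. It encodes the ubiquitin ligase that gives its complex its name. Its peak at chrIII:5172524-5172827 had a signal of 124, rank 391, with an IDR of 0.00177. Replicate 1 gave 41.2 (rank 1785, outside its own list) and replicate 2 gave 85.6 (rank 383, inside its own list). The summit was 631 bp upstream of prp-19 but only 44 bp upstream of K10D2.5 and 763 bp upstream of emb-1, which encodes a subunit of the anaphase-promoting complex. Of these 3 genes, prp-19 is not the nearest. The other members of the group had weak candidates: prp-18, a factor of the second splicing step, at 32.4, and prp-17, another such factor, at 6.74, the lowest best candidate of the set.

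The SR protein genes included a pair that shares a promoter. The genes rsp-1 and rsp-2 are transcribed away from each other from 5′ ends 407 bp apart, and a single peak at chrII:11453039-11453342 fell between them, 171 bp upstream of rsp-1 and 236 bp upstream of rsp-2. Its signal was 92.5, rank 682, with a score of 935 and an IDR of 0.00559. Replicate 1 gave it 35.2 (rank 3949) and replicate 2 gave 55.5 (rank 680), and only replicate 2 held it in its own list. A neighbouring rsp-1 candidate at chrII:11452439-11452742, on the far side of the rsp-2 5′ end, missed the threshold narrowly with a signal of 83.5 and a score of 820.

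At rsp-8, a further SR-type gene, the peak at chrIII:11825713-11826016 lay 553 bp upstream and was in the other thresholded list, with a signal of 93.2 (rank 678 of 1559). Replicate 1 gave 29.6 (rank 8503) and replicate 2 gave 70.3 (rank 486). Its score among the candidates was 746 and its IDR 0.0159, just outside the conservative threshold, whereas the other ranked list gave 0.00174. The strongest rsp-8 promoter peak of replicate 1, with 44.7 (rank 1215), was at another site, 132 bp downstream of an annotated 5′ end. The remaining SR genes had best candidates of 52.4 at rsp-4, 39.1 at rsp-5, 37.3 at rsp-7, 27.2 at rsp-3 and 20.5 at rsp-6, none in a thresholded list.

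The U2AF subunits, which bind the 3′ splice site, differed from each other. The small subunit gene uaf-2 had a conservative peak at chrIV:17116875-17117178 with a signal of 89.1, rank 738, an IDR of 0.00403 and a score of 994. Replicate 1 gave 52 (rank 694) and replicate 2 gave 33.7 (rank 3023), which made it the only conservative site of the set that was stronger in replicate 1. The summit lay in a coding exon of uaf-2, 177 bp downstream of an internal annotated 5′ end and 1740 bp downstream of the most upstream one. It was also 370 bp upstream of cyn-13, the counterpart of human peptidyl-prolyl isomerase E, on the same strand. Counting only the most upstream 5′ end of each gene leaves uaf-2 out. The large subunit gene uaf-1 had 6 candidates, the best with a signal of 36.7.

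No LSm ring gene had a conservative summit, and lsm-3 was the only one in another thresholded list. Its peak at chrIV:13386093-13386396 had a signal of 91.7 (rank 702 of 1559 in the other thresholded list). Replicate 1 gave 14.7 (rank 44785) and replicate 2 gave 82.1 (rank 400), a ratio of 5.59 and the widest gap among the 7 sites compared between replicates. Its IDR was 0.494 among the candidates but 0.00194 in the other ranked list, so its call depends on which ranked list is read. The summit was 958 bp upstream of lsm-3, and closer to 3 other genes: 79 bp upstream of Y62E10A.23, 135 bp upstream of mdt-9, a Mediator subunit gene, and 154 bp upstream of Y62E10A.20. The other LSm genes had best candidates between 19.4 at lsm-4 and 59.4 at lsm-6, the latter 803 bp upstream. The strongest lsm-6 promoter peak of replicate 1, with 28.1, lay at that site. That of replicate 2, with 22.9, lay nearer to the gene, beside a weaker candidate with a signal of 52.5 at 111 bp upstream. These replicate values are thus from different sites and are not compared.

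**Figure D2:**
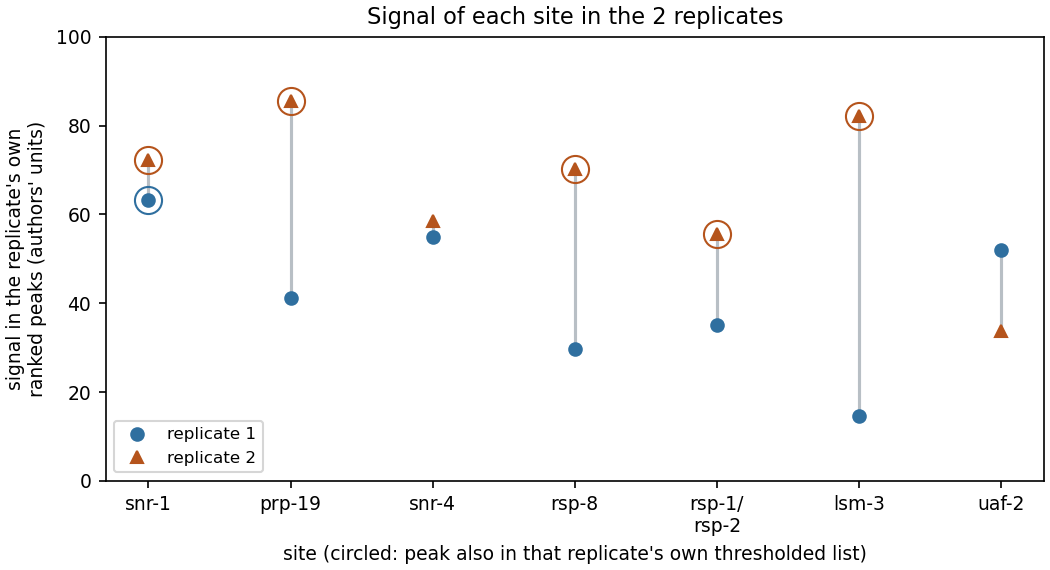
Signal (authors' units, vertical axis from 0) of each site in replicate 1 and replicate 2's own ranked peaks, for 7 of the 8 summits of the other thresholded list, ordered by their signal there (the weaker snr-4 summit, with no separate replicate 2 peak, is not drawn); a circle marks a peak also in that replicate's own thresholded list. The replicates lie close at snr-1 (63.2 and 72.3) and snr-4 (54.8 and 58.4) and far apart at lsm-3 (14.7 and 82.1).

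The core snRNP groups without a thresholded site still had candidates. All 5 SF3A and SF3B genes, whose proteins hold the U2 snRNP on the branch point, had one, with best signals from 31.6 at sftb-2 to 59.4 at prp-21 (SF3A1), whose summit was 61 bp downstream of its 5′ end. The strongest promoter peak of prp-21 was 37.8 in replicate 1 and 14.7 in replicate 2. Of the 10 U4/U6 and U5 genes 8 had a candidate, led by prp-8, the large protein at the core of the U5 snRNP. Its signal was 57.7 at 325 bp upstream, with a score of 488, and its strongest promoter peak was 24.4 in replicate 1 and 38.8 in replicate 2. Of the 3 U1-associated genes, prp-40 had 28.7 and prp-39 had 12.7, and snrp-3 had no candidate.

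Best candidates were compared with those of all genes, with and without called genes. The median best candidate was 39.1 for the 42 splicing genes (quartiles 27.8 and 57.2) and 35.1 for 12840 genes in all (24.7 and 47.5). Leaving out genes with a conservative summit, it was 35.9 for 36 splicing genes and 34.1 for 12246 genes. Over genes in none of the 4 thresholded lists it was 34.4 for 34 splicing genes (quartiles 24.4 and 45) and 33.7 for 12031 genes (23.9 and 44.8), so these medians lay close together. By group the medians were 49 for Sm, 45.8 for SR, 43.8 for U4/U6 and U5, 39.6 for LSm, 33.8 for SF3A and SF3B, 32.4 for Prp19 complex and second-step and 20.7 for U1-associated genes. The U2AF pair had a median of 62.9 over 2 genes. The ranges of all these groups overlapped, apart from that of the U1-associated genes, whose higher value of 28.7 lay below the lowest values of the SF3A and SF3B and the U2AF genes.

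**Figure D3:**
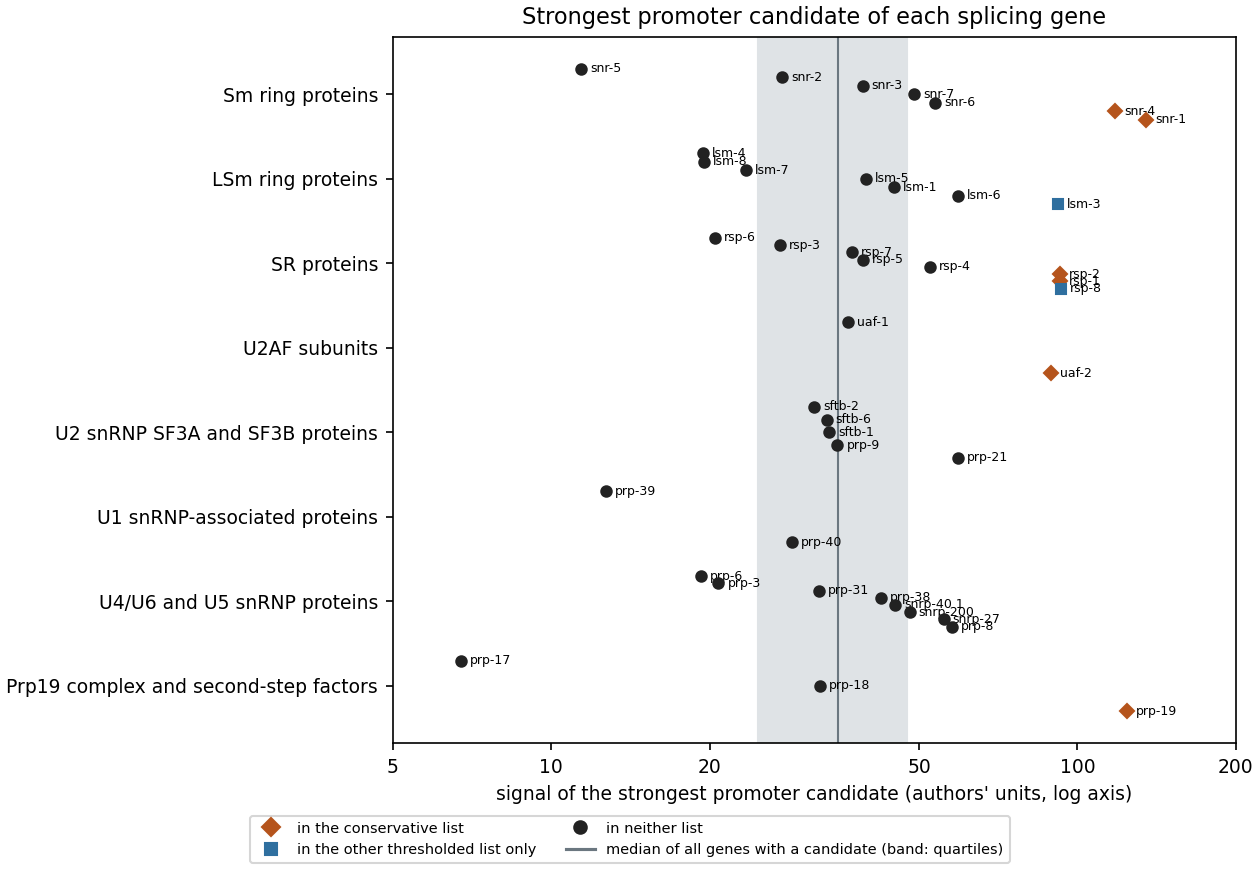
Signal of the strongest promoter candidate (authors' units, log axis) of the 42 splicing genes that have one, in 8 groups by role; diamonds are in the conservative list, squares in the other thresholded list only and circles in neither, and the line and band give the median of all genes (35.1) and its quartiles (24.7 and 47.5). The marked sites sit at 89.1 and above, and every circle at 59.4 or below.

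The set is rich in divergent promoters, in which genes on opposite strands have 5′ ends that face away from each other. A partner of this kind within 1000 bp was annotated for 27 of the 45 genes (60%), against 18.8% of all genes. Splicing genes were also partners of each other: rsp-1 with rsp-2 at 407 bp, and rsp-5 with snr-3 at 404 bp. The same candidate, with a signal of 39.1 and a score of 267, below the threshold, lay in the promoter windows of both rsp-5 and snr-3. Other partners included the ribosomal protein gene rps-9 beside lsm-1 (588 bp), the mitochondrial ribosomal protein genes mrps-23 beside prp-40 (282 bp) and mrps-18B beside prp-9 (285 bp), and snu-13, itself a snRNP protein gene, beside rsp-7 (580 bp). The shortest spacing was 74 bp, between prp-17 and F49D11.14.

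Most of the splicing genes with a conservative summit had a divergent partner, which was not so over all genes, where 208 of 594 did. Among the 27 such splicing genes 5 had a conservative summit (18.5%, against 5.55% of all genes with a partner), and 26 had a candidate (96.3%, against 71.0%). The 5 with a conservative summit include uaf-2, whose partner itsn-1 lies 915 bp from a uaf-2 5′ end. The uaf-2 summit is outside the promoter window of itsn-1. They also include rsp-1 and rsp-2, which share a single summit. Among the 18 without a partner, snr-4 alone had a conservative summit (5.56%, against 2.38%), and 16 had a candidate (88.9%, against 62.7%). With a partner the share of splicing genes in the conservative list was thus above the background by a ratio of 3.34, below the 4.48 over all genes. Without a partner the ratio was 2.34, but it rests on the snr-4 summit alone, which lies beside an snRNA gene, so nothing is read from it. How much of the difference from other genes goes with promoter arrangement was not tested.

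Some splicing genes lie just downstream of another gene. In 11 splicing genes (24.4%, against 15.3% of all genes) every 5′ end lay within 500 bp of the 3′ end of a gene on the same strand. None of these 11 had a conservative summit, where 1.83% of all such genes did; with 11 genes such a share gives less than 1 gene, so nothing is read from this count. Candidates were present at 9 of them (81.8%, against 64.5%), including lsm-6 with 59.4 at 803 bp upstream. The window itself was not larger in the set: its median length was 1201 bp in both, its mean 1390 bp against 1460 bp, and 28.9% against 27.4% of genes had more than 1 annotated 5′ end. By chromosome the set had 8 genes on I, 12 on II, 10 on III, 8 on IV, 6 on V and 1 on X.

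**Figure D4:**
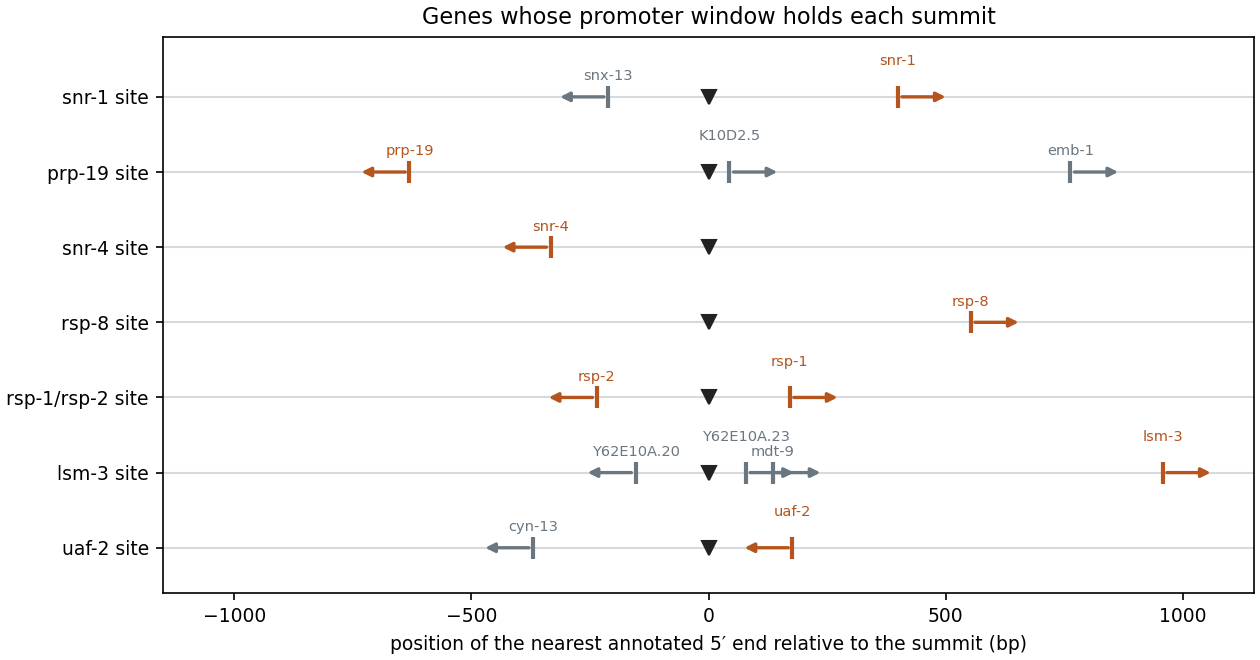
Nearest annotated 5′ end of each protein-coding gene whose promoter window holds a splicing gene summit. The horizontal axis is the distance from the summit (bp) on the plus strand. Triangles mark the summit, arrows the direction of transcription, orange the splicing genes and grey the other genes. Non-coding genes are not drawn, among them the snRNA gene C52E4.8, which starts 62 bp from the snr-4 summit. The rsp-1/rsp-2 summit lies between splicing genes on both sides. The snr-1, prp-19 and lsm-3 summits are nearer to other genes, at 212, 44 and 79 bp.

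Set beside all 506 promoter summits of the conservative list, the 5 splicing summits were of middling to higher strength. Their signals of 89.1 to 135 (median 118) compare with a median of 97.5 and quartiles of 79.9 and 135, and they ranked 127, 148, 163, 285 and 305 of 506. The nearest 5′ end of any gene lay at a median of 177 bp, against 250 bp. Of the 5 summits, 4 (80%) lay in the windows of more than 1 gene, against 121 of 506 (23.9%). A summit in several windows has more ways to enter a set chosen by gene, so these shares are not drawn alike. At uaf-2 the other gene, cyn-13, is on the same strand. Of the summits that only the other thresholded list holds, those at rsp-8 and the weaker snr-4 site lay in the window of 1 gene, and that at lsm-3 in the windows of 4. With 5 summits such a share is coarse. The ratio of replicate 2 to replicate 1 signal ran from 0.648 at uaf-2 to 2.08 at prp-19 with a median of 1.14, against 1.08 over all 506. Of the 506, 230 (45.5%) were in neither replicate's own list, as were 2 of the 5.

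Base composition at the summits varied more within the set than between its median and that of all promoter summits. The G+C share within 100 bp of the summit was 41.3% at snr-1, 45.3% at prp-19, 47.8% at rsp-1/rsp-2, 50.7% at snr-4 and 66.7% at uaf-2. The median was 47.8%, against 48.3% for the 506 (quartiles 43.3% and 52.2%). Windows centred 500 bp to the left and right had medians of 42.3% and 39.3% in the set and 36.3% and 37.3% over all. The summit was thus not the richest window everywhere: at rsp-1/rsp-2 the left flank reached 48.8% and at snr-1 the right flank 43.8%.

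**Figure D5:**
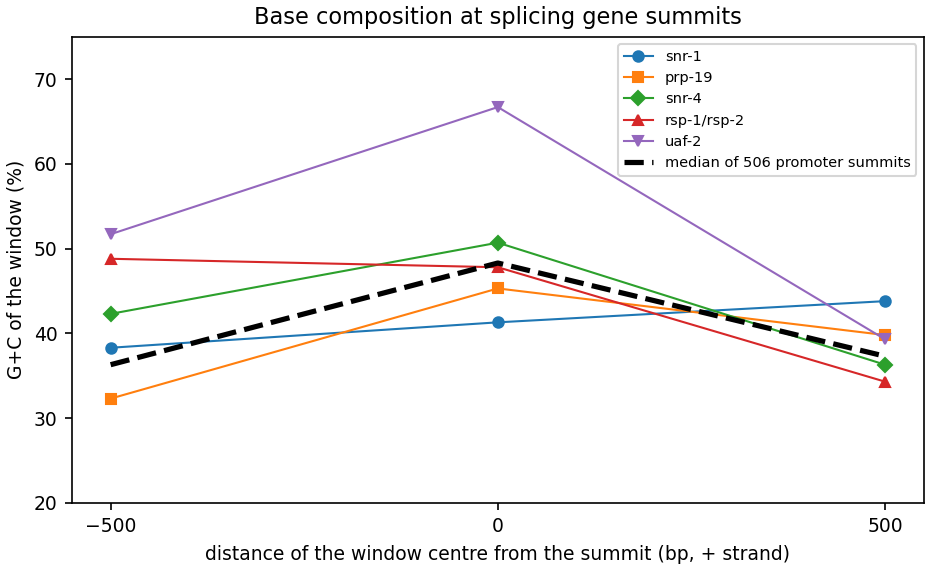
G+C share (%, vertical axis from 20) of windows reaching 100 bp to each side, at each of the 5 conservative splicing summits and 500 bp to either side along the plus strand, with the median of 506 promoter summits dashed. The uaf-2 window stands highest at 66.7%, and the other 4 lie between 41.3% and 50.7% around the overall median of 48.3%.

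The preset words were scarce in the printed windows. The word TAATTA, the core of many homeodomain binding sites, occurred near the left edge of the snr-1 window and at 19 of 506 promoter summits (3.75%). CCGCCC occurred, as its reverse complement, in the prp-19 window and at 97 of 506 (19.2%). The words GAGAGA (25.9% of the 506), GCGCGC (17.6%), GTTCGA (15.6%) and CACGTG (4.35%) were in none of the 5, though the rsp-8 window held GAGAGA and the lsm-3 window GTTCGA. A match describes the letters and is not shown to be a binding site, and a missing match says only that these letters are not in this window.

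The windows were also compared with each other. The longest words common to any pair had 11 letters: GCGTCGCGTGC in the snr-1 and rsp-1/rsp-2 windows, on opposite strands, and AATTCGAAAAA in the prp-19 and snr-4 windows, on the same strand. The former occurred in 2 of the 506 promoter summit windows (0.395%), which are these sites themselves, and the latter in 3 (0.593%). These words were found by searching the windows, so their occurrence there is a description only.

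Further genes of the pathway were taken from lists of other splicing proteins. Of 84 genes named there, 80 were found outside the set of 45, and 5 of them (6.25%) had a conservative promoter summit, above the 2.97% of all genes and below the 13.3% of the set. By list these were 3 of 25 helicases and Prp19-related factors, 2 of 26 splicing regulators, and none of 16 other snRNP proteins, 8 assembly and trans-splicing factors or 5 exon junction complex proteins. The strongest was plrg-1, whose product belongs to the Prp19 complex with that of prp-19. Its signal was 282 (rank 113), with 115 in replicate 1 and 168 in replicate 2, at 196 bp upstream. The others were rsr-1, an SR-related factor, at 116, the helicase gene mog-5 at 95.3, the regulator fox-1 at 83.1, within its own intron, and hel-1, a helicase gene, at 68. The fox-1 summit lay 611 bp downstream of its nearest annotated 5′ end, so it counts only as upstream of another 5′ end. The mog-5 summit also lay in the promoter window of fbxl-3, that of rsr-1 in that of sri-5 and that of hel-1 in that of C26D10.4. The plrg-1 and fox-1 summits lay in the window of no other gene. Over all promoter summits of the conservative list 23.9% were shared, and with so few sites nothing is read from the comparison. The RNA-binding protein gene fust-1 was in the other thresholded list only, at 120.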

How the data were processed

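Peaks from both biological replicates labelled tab-1 were analysed on the build ce11, per the deposited notes, which is the same assembly as WBcel235. The authors deposited peak lists with a signal from their peak caller, whose scale is not stated, and a score that falls as the IDR rises. The ranked lists as deposited also hold the −log10 of the global IDR. Which aligner and peak caller were used is not given in the sources used here. Nor is the depth of sequencing known, so values carry no interval or floor. Signal was used to describe and rank peaks within a list, and replicate ratios set separately called lists side by side.

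Gene models came from Ensembl release 115 and sequence from RefSeq. Summits were assigned to promoter windows with Python 3.11.15, pandas 2.3.3 and numpy 2.4.6, and figures drawn with matplotlib 3.10.9; the assignment was tested on simulated data. A peak of a replicate was taken as the one that overlaps a site and has the nearest summit. A small RNA gene counted within 200 bp of a summit. Coordinates are 1-based, and mitochondrial peaks were left out. The RefSeq name C52E4.8 is used for a gene that Ensembl calls T11F9.15.

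Genes are named when they had a conservative summit or one in another thresholded list, were among the 5 genes with the strongest candidates of those without a conservative summit (rsp-8, lsm-3, lsm-6, prp-21 and prp-8), or shared a summit with such a gene. Other values illustrate the range within a group and were chosen after they were seen. The genes, lists and words were chosen with earlier results of these data known, so counts are given beside those over all genes, without a test. The labels call the replicates biological and say no more of their origin.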

Additional observations from a re-analysis of the deposited data

How the results depend on the processing

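The count of 6 splicing genes in the conservative list was 5 to 8 with a window of 500 bp upstream or none downstream, with any overlapping base, with the most upstream 5′ end, without small RNA gene sites, in the other thresholded list and, in alternatives chosen after seeing the data, without the coding exon site (5) or among genes with a candidate (6). The share of all genes was 2.17% with 500 bp upstream, 2.78% with none downstream, 3.33% with any base, 2.61% with the most upstream 5′ end, 2.52% without small RNA gene sites and 2.83% without coding exon sites, against 2.97%. The count fell to 3 when each summit counted only for the nearest 5′ end, since snr-1, prp-19 and rsp-2 share theirs with a nearer gene, and to 1 (snr-1) at an IDR of 0.001 or lower; the share of all genes fell too, to 2.34% and 0.971%. Leaving out a replicate gave 1 to 6: replicate 1's own list holds snr-1 alone. The 6 genes in replicate 2's own list are not the same 6, since they include rsp-8 and lsm-3 but not snr-4 or uaf-2. With 500 bp upstream the other thresholded list gave 5 (2.52% of all genes) and replicate 2's own list 3 (1.49%); the candidates gave 40 to 42. The median signal of 118 was 105 with 500 bp upstream, 108 without small RNA gene sites and 135 at the strict IDR. The median distance to the nearest 5′ end of a splicing gene was 333 bp, and 255, 288 and 399 bp in that order. To the nearest 5′ end of any gene it was 177 bp, as given above. The G+C share of 47.8% was 49.3%, 46.5% and 41.3%, and 53.5% within 50 bp of the summit. These medians rest on 5 summits or fewer, so each move is the loss of 1 or more summits, or the shorter window. No paired analysis was possible because there is 1 group. Read depth is unknown, so a missing peak is not absence of binding.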

Other observations

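Small RNA genes lay near weaker candidates at a few other splicing promoters. At rsp-8, a candidate with a signal of 30.9 and a score of 218 lay within 200 bp of the miRNA gene mir-1832.1, and at uaf-2 a candidate with a signal of 14.1 and a score of 122 lay near the snoRNA gene Y116A8C.50. Both are below the threshold score of 830. The snRNA gene beside snr-4, C52E4.8, is identical in sequence to 1 other of the 129 annotated snRNA genes, and how reads that match both copies were placed is not given in the sources used here.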
